A study of Saccharomyces pastorianus with 18 samples.

Results

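Gene expression of 2 lager yeast mutants, W34/70 9.7 and CBS1538 11.1, was compared on day 2 of a wort fermentation, with 3 RNA-seq libraries of each, 6 of the 18 libraries of the series. The libraries were chosen by their titles. Each gene was represented by the summed counts of its S. cerevisiae and S. eubayanus copies, for the 4386 gene names that occurred once in each sub-genome of a table of 11979 features. A gene with counts on 1 copy only, such as CAB1 below, is still read on that copy alone. Both mutants are radicicol derivatives of Saccharomyces pastorianus. Their parents were exposed to 20, 40 or 100 µg/mL radicicol, and resistant colonies were picked on 75 µg/mL B2TA or 200 µg/mL PFPA, analogues of phenylalanine. Cells propagated for 2 days at 25 °C were pitched at 15000000 cells per mL into 10 mL of 10% wort with 1 mM ZnSO4 and fermented in triplicate tubes at 13 °C without shaking. Each mutant is 1 colony, so the strain background, the radicicol history and the clone cannot be told apart. No untreated parent of W34/70 9.7 was analysed here.

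S. pastorianus is a hybrid of S. cerevisiae and the cold-tolerant S. eubayanus. CBS1538 belongs to the Saaz type, which has lost much of its S. cerevisiae sub-genome, and W34/70 to the Frohberg type, which keeps large parts of both. Radicicol binds the ATP site of the chaperone Hsp90. Resistance to phenylalanine analogues is a selection used to find brewing yeast with altered aromatic amino acid metabolism, because phenylalanine is the source of the rose-scented alcohol 2-phenylethanol and its acetate ester.

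The labels of the CBS1538 day 2 libraries disagree. Their titles name the mutant 11.1 and their column names carry mt, while the strain field names the parental strain. They are called CBS1538 11.1 below, and every difference below carries that doubt. Libraries held 12782267 to 15020202 counts in W34/70 9.7 and 5266324 to 8773637 in CBS1538 11.1. Copies of S. eubayanus took 33.9%, 33.7% and 37.0% of the summed-gene counts in W34/70 9.7, against 90.9%, 90.6% and 90.5% in CBS1538 11.1. In the other 6 CBS1538 11.1 libraries, whose labels agree, that share was 90.3% to 90.9%. No library of the series is titled as the CBS1538 parent, so the share cannot tell the mutant from its parent. 2 libraries stood apart from their group. W34/70 9.7 replicate 2 had 1285 counts on 404 S. eubayanus chromosome VII genes, where replicates 1 and 3 had 300994 and 273101. Values on the S. eubayanus copy alone of a gene on that chromosome are therefore also given without it and day 4 replicate 1, which lacks those counts too. CBS1538 11.1 replicate 1, the shallowest library, had 104 genes at 0 counts, against 30 and 28 in replicates 2 and 3, and lay at 30.1 on the second principal component (15.8% of the variance), where those lay at -22.6 and -17.1. Gene values are CPM (counts scaled to library size, with TMM factors), and differences are log2 W34/70 9.7 minus CBS1538 11.1 from edgeR's quasi-likelihood fit. A call means that the Benjamini-Hochberg adjusted p, over all genes tested, was below 0.05.

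The strains differed in about as many genes upward as downward. Of 4369 genes tested, 1124 (25.7%) were called higher in W34/70 9.7 and 1102 (25.2%) lower, 50.9% in all. The median log2 difference over all genes was 0.03. TMM scaling draws the typical difference towards 0, so this balance is in part set by the scaling. Among 4129 genes with copies within 10% in length, 1153 were called higher and 951 lower. Differences of at least 2-fold made up 1122 of the calls, 623 higher and 499 lower. The groups of 3 libraries did not overlap for 2277 genes (52.1%). Genes named below were picked in part for absence of overlap or for the smallest p in a list, which favours groups that are apart. Counts of list members below are to be read beside the shares of all genes called higher and lower. CPM are shares of a library, so fewer cells with a transcript and less RNA per cell cannot be told apart.

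The genes with the largest differences upward included 3 stress genes with under 10 CPM in every CBS1538 11.1 library. HSP12 (YFL014W and DI49_1640, S. cerevisiae VI:107256-107585), which encodes a small membrane-stabilising heat-shock protein, had 311, 206 and 306 CPM in W34/70 9.7 and 6.32, 3.29 and 1.65 CPM in CBS1538 11.1. The log2 difference was 6.31 (SE 0.57, adjusted p = 7.27e-08). The 12 largest differences each way were picked among called genes without overlap, so separation of the groups was set by that choice. DDR2, a multistress response gene, stood at 86.4, 38.5 and 141 CPM in W34/70 9.7, against 0, 1.94 and 3.00 CPM (log2 5.54, SE 0.59, adjusted p = 4.73e-07). The desiccation-induced hydrophilin gene GRE1 had 26.2, 8.90 and 29.2 CPM in W34/70 9.7 and 0, 0.449 and 0.450 CPM in CBS1538 11.1 (log2 5.89, adjusted p = 2.94e-05). In both genes W34/70 9.7 replicate 2 was the lowest of its group, yet far above the highest CBS1538 11.1 library. On the S. eubayanus copy alone the differences were 7.24 for HSP12, 5.26 for DDR2 and 7.08 for GRE1, all called.

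YHB1, the flavohaemoglobin that detoxifies nitric oxide (YGR234W, VII:959904-961103), reached 220, 254 and 162 CPM in W34/70 9.7 and 0, 1.50 and 0.450 CPM in CBS1538 11.1, a log2 difference of 8.11 (SE 0.62, adjusted p = 1.22e-08). The arginase gene CAR1 had 114, 114 and 183 CPM in W34/70 9.7 and 7.46, 9.57 and 17.1 CPM in CBS1538 11.1 (log2 3.55, SE 0.28, adjusted p = 1.24e-08). PAI3, the inhibitor of vacuolar proteinase A, had 32.5, 19.4 and 19.5 CPM in W34/70 9.7 and 1.72, 0.748 and 0.750 CPM in CBS1538 11.1 (log2 4.59). These genes too were picked among those without overlap between the strains. PCK1, phosphoenolpyruvate carboxykinase of gluconeogenesis, was even across W34/70 9.7 at 22.8, 21.6 and 24.8 CPM but had 0, 0.598 and 4.35 CPM in CBS1538 11.1. Its log2 difference of 3.62 became 5.88 without CBS1538 11.1 replicate 3.

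The other genes among the 12 largest differences upward were URA10, the minor orotate phosphoribosyltransferase of pyrimidine synthesis (1068, 280 and 842 CPM in W34/70 9.7 and 21.2, 38.0 and 39.5 CPM in CBS1538 11.1), SHH3, FMP16, SNF8 of the ESCRT-II sorting complex, and CAB1. SHH3, related to a succinate dehydrogenase subunit, was uneven within W34/70 9.7, with 193 and 188 CPM in replicates 1 and 3 and 17.7 CPM in replicate 2, and had 0 to 2.69 CPM in CBS1538 11.1. CAB1, the pantothenate kinase at the entry of coenzyme A synthesis, had 105, 89.5 and 78.5 CPM in W34/70 9.7 and 0 counts in all 3 CBS1538 11.1 libraries, at least 513-fold higher against 3 counts over the group. Its S. eubayanus feature had no count in any of the 18 libraries, as for 66 of the genes tested, so this bound compares the S. cerevisiae copy only. For URA10 and SNF8, 3.09% and 5.95% of the W34/70 9.7 counts lay on the S. eubayanus copy, against 100% and 90.7% in CBS1538 11.1. On that copy alone URA10 differed by 0.80 (adjusted p = 0.0195) and SNF8 by 0.97 (adjusted p = 0.101).

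**Figure D1:**
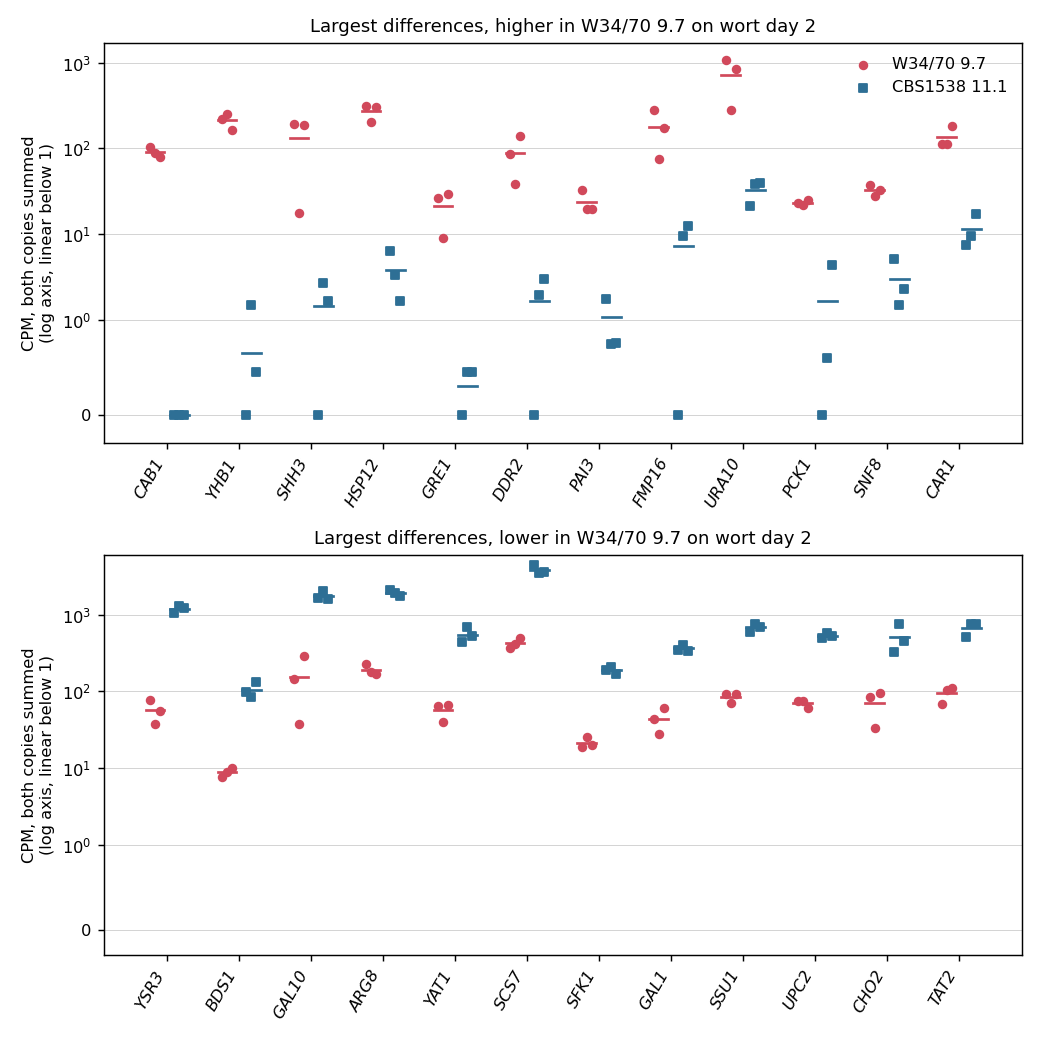
CPM of the 12 largest differences upward (top) and downward (bottom) in each day 2 library, on an axis that is logarithmic above 1 and linear below. Red circles are W34/70 9.7, blue squares CBS1538 11.1, and short lines the means of 3 libraries. In the top panel CBS1538 11.1 lies at 0 for CAB1, at most at 1.50 CPM for YHB1 and at 1.65 to 6.32 CPM for HSP12. In the bottom panel it is at least 84.8 CPM for every gene.

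Among the largest differences downward were genes of lipid metabolism, galactose use and uptake. YSR3, a phosphatase of long-chain base phosphates in sphingolipid turnover (YKR053C, XI:534067-535281), had 76.8, 37.9 and 55.0 CPM in W34/70 9.7 and 1045, 1291 and 1222 CPM in CBS1538 11.1, a log2 difference of -4.39 (SE 0.28, adjusted p = 2.69e-09). SCS7, the ceramide fatty acid hydroxylase, had 372, 413 and 503 CPM in W34/70 9.7 and 4468, 3567 and 3616 CPM in CBS1538 11.1 (log2 -3.18, SE 0.22). Replicates of each strain were close for SCS7, and CBS1538 11.1 was 9.05-fold higher. CHO2, which methylates phosphatidylethanolamine, had 83.7, 33.5 and 94.3 CPM in W34/70 9.7 and 330, 759 and 456 CPM in CBS1538 11.1 (log2 -2.87). UPC2, the activator of sterol uptake and synthesis genes, had 75.4, 75.8 and 60.9 CPM in W34/70 9.7, against 493, 584 and 528 CPM (log2 -2.92, SE 0.26, adjusted p = 7.27e-08).

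GAL10 and GAL1, of galactose use, stood higher in CBS1538 11.1. GAL10, the galactose epimerase, varied within W34/70 9.7, at 144, 37.7 and 288 CPM, and had 1683, 2027 and 1608 CPM in CBS1538 11.1 (log2 -3.50, SE 0.51, adjusted p = 1.72e-05). GAL1, galactokinase, had 43.6, 27.6 and 59.9 CPM in W34/70 9.7 and 348, 408 and 336 CPM in CBS1538 11.1 (log2 -3.06). In both genes replicate 2 was the lowest W34/70 9.7 library. SSU1, which exports sulfite from the cell, had 92.5, 71.0 and 92.4 CPM in W34/70 9.7 and 593, 760 and 700 CPM in CBS1538 11.1, which was 8.03-fold higher. YAT1, a carnitine acetyltransferase that lies on S. cerevisiae I and S. eubayanus IV, differed by -3.26, BDS1, a sulfatase, by -3.57 and SFK1, a plasma membrane protein, by -3.16. SFK1 had no count on its S. eubayanus copy in W34/70 9.7, and 89.5% of its CBS1538 11.1 counts on that copy. The other 11 of these 12 genes had 28.7% to 100% of their W34/70 9.7 counts on that copy and stood lower there as well, with log2 differences of -3.48 to -1.96, called in all but CHO2 (-3.07, adjusted p = 0.105). CHO2 lies on S. eubayanus VII, and without the libraries lacking that chromosome it stood at -2.49 (adjusted p = 3.27e-06).

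Genes of the general stress response, which Msn2 and Msn4 switch on when growth slows, were mostly higher in W34/70 9.7. Of 29 tested, 16 were called higher and 3 lower, with a median log2 difference of 1.17, against 25.7% and 25.2% of all genes. The summed level of the list was 25320 to 35660 CPM in W34/70 9.7 and 12010 to 14070 CPM in CBS1538 11.1. MSC1 had 1930, 1253 and 1803 CPM in W34/70 9.7 and 388, 483 and 443 CPM in CBS1538 11.1 (log2 1.92, SE 0.26). On S. eubayanus copies alone 9 of the 29 members were called higher and 2 lower, against 20.8% and 21.8% of all genes in that fit. Not all stress-linked genes followed: HSP104, the disaggregase, had 1723, 1186 and 1808 CPM in W34/70 9.7 and 1695, 3043 and 2498 CPM in CBS1538 11.1, with a log2 difference of -0.62 (adjusted p = 0.0475) that lost its call without any of 4 of the 6 libraries. The list of Hsp70, Hsp104 and small heat-shock proteins had 7 of 26 higher and 6 lower.

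The oxidative defence list had 16 of 31 members called higher and 3 lower in W34/70 9.7, beside 25.7% and 25.2% of all genes. On S. eubayanus copies alone 11 of 31 were called higher and 4 lower, beside 20.8% and 21.8% in that fit. SOD1, the cytosolic copper-zinc superoxide dismutase, had 1369, 1007 and 978 CPM in W34/70 9.7 and 162, 138 and 164 CPM in CBS1538 11.1, a difference of 7.23-fold (log2 2.85, SE 0.26, adjusted p = 7.27e-08). SOD2, the mitochondrial manganese enzyme, had 484, 701 and 576 CPM in W34/70 9.7 and 140, 109 and 117 CPM in CBS1538 11.1 (log2 2.27). GRX2, a glutaredoxin, had 372, 295 and 198 CPM in W34/70 9.7 and 53.4, 45.3 and 67.4 CPM in CBS1538 11.1 (log2 2.38). None of the 3 genes overlapped between strains, and on the S. eubayanus copy alone they stood at 3.96, 1.63 and 1.69, all called.

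Glycolysis took a larger share of the W34/70 9.7 libraries. The 16 genes tested summed to 205900 to 223700 CPM in W34/70 9.7 and 99140 to 158000 CPM in CBS1538 11.1, and 8 were called higher and 2 lower (median log2 0.69). TDH3, the main glyceraldehyde-3-phosphate dehydrogenase, had 23750, 19680 and 18450 CPM in W34/70 9.7 and 6120, 4232 and 4267 CPM in CBS1538 11.1 (log2 2.08, SE 0.28, adjusted p = 6.55e-06). FBA1, aldolase, had 31190, 27730 and 23140 CPM in W34/70 9.7 and 10240, 6037 and 9080 CPM in CBS1538 11.1 (log2 1.69), and TPI1, triose phosphate isomerase, was 2.98-fold higher. Of the TDH3 counts of W34/70 9.7, 6.44% were on the S. eubayanus copy, and on that copy alone the difference was -0.40 (adjusted p = 0.756), or 0.17 (adjusted p = 0.665) without the libraries lacking S. eubayanus VII, on which it lies. TPI1 kept its call there (1.02, adjusted p = 0.00747), and FBA1 had almost no S. eubayanus counts in W34/70 9.7. On S. eubayanus copies alone 4 of 15 glycolysis genes were called higher and 2 lower, beside 20.8% and 21.8% of all genes in that fit.

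In alcoholic fermentation 3 of 6 genes were called higher and 1 lower, beside 25.7% and 25.2% of all genes. On S. eubayanus copies alone 1 of 6 was higher and 2 lower, beside 20.8% and 21.8% in that fit. PDC1, the main pyruvate decarboxylase, had 14830, 12770 and 11990 CPM in W34/70 9.7 and 7839, 3387 and 4152 CPM in CBS1538 11.1 (log2 1.36, SE 0.35, adjusted p = 0.00287), without overlap. ADH1, the fermentative alcohol dehydrogenase, had 12390, 11370 and 9571 CPM in W34/70 9.7 and 8792, 5218 and 6840 CPM in CBS1538 11.1 (log2 0.68, adjusted p = 0.0407), and that call was lost without any of 4 of the 6 libraries. ADH5 differed by -0.96 (adjusted p = 0.0057). In the glycerol branch GPD1, the glycerol-3-phosphate dehydrogenase induced by osmotic stress, had 1600, 1023 and 1112 CPM in W34/70 9.7 and 396, 515 and 518 CPM in CBS1538 11.1 (log2 1.39, SE 0.21), and GCY1, a glycerol dehydrogenase, differed by 1.71. FPS1, the glycerol export channel, differed by -0.46 and lost its call without W34/70 9.7 replicate 1 (-0.40) or 2 (-0.38) or CBS1538 11.1 replicate 1 (-0.29).

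Storage carbohydrate genes gave no common direction. For trehalose 3 of 9 genes were called higher and 2 lower, and for glycogen 2 of 12 higher and 1 lower. Of all genes 25.7% were called higher and 25.2% lower. GPH1, glycogen phosphorylase, which releases glucose from glycogen, had 9839, 8546 and 8632 CPM in W34/70 9.7 and 4196, 3408 and 2611 CPM in CBS1538 11.1 (log2 1.40, SE 0.27). The phosphoglucomutase gene PGM2 had 6884, 4562 and 7495 CPM in W34/70 9.7 and 2511, 3264 and 2418 CPM in CBS1538 11.1 (log2 1.21). SGA1, a glucoamylase of sporulating cells, had 21.9, 40.9 and 48.9 CPM in W34/70 9.7 and 3.16, 4.19 and 5.85 CPM in CBS1538 11.1 (log2 3.04). None of these 3 overlapped between strains. Of the 13 maltose and sucrose genes listed, none occurred once in each sub-genome and none was analysed here.

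In aromatic amino acid synthesis, the pathway that the analogue selection acts on, 6 of 13 genes were called lower in W34/70 9.7 and 2 higher (median log2 -0.44). The pathway opens with a pair of DAHP synthases. ARO3, the isozyme inhibited by phenylalanine, had 1519, 885 and 1491 CPM in W34/70 9.7 and 625, 672 and 859 CPM in CBS1538 11.1, a log2 difference of 0.85 (SE 0.21, adjusted p = 0.00201). ARO4, inhibited by tyrosine, had 1549, 1121 and 1515 CPM in W34/70 9.7 and 2672, 1742 and 2138 CPM in CBS1538 11.1 (log2 -0.65, SE 0.21, adjusted p = 0.014). The isozymes thus differed in opposite directions between the strains, without overlap in either gene. After chromosome centring ARO3 stood at 0.56. ARO4 lost its call without W34/70 9.7 replicate 2 (-0.51) or CBS1538 11.1 replicate 1 (-0.48). For ARO3, 16% of the W34/70 9.7 counts lay on the S. eubayanus copy and on that copy alone the difference was -0.40 (adjusted p = 0.25), while ARO4 stood there at -0.77 (adjusted p = 0.0102).

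The tryptophan branch held the lowest log2 difference of the pathway. TRP2, anthranilate synthase, had 407, 362 and 488 CPM in W34/70 9.7 and 1884, 1640 and 1729 CPM in CBS1538 11.1 (log2 -2.06, SE 0.19, adjusted p = 8.88e-08). TRP5, tryptophan synthase, had 1054, 671 and 1381 CPM in W34/70 9.7 and 2766, 3386 and 2804 CPM in CBS1538 11.1 (log2 -1.53, SE 0.24). Both genes were 2.88-fold to 4.18-fold higher in CBS1538 11.1. TRP3, the partner subunit of Trp2, ran the other way, with 488, 308 and 453 CPM in W34/70 9.7 and 149, 260 and 294 CPM in CBS1538 11.1 (log2 0.82, adjusted p = 0.00542). TRP2 lies on chromosome V, where genes stood lower as a block, and after centring each chromosome its difference was -1.33, still called. TRP3 had no S. eubayanus counts in W34/70 9.7 and 100% in CBS1538 11.1.

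On the phenylalanine and tyrosine side differences were small. TYR1, prephenate dehydrogenase towards tyrosine, had 56.7, 54.5 and 57.9 CPM in W34/70 9.7 and 88.7, 76.4 and 90.3 CPM in CBS1538 11.1, without overlap (log2 -0.59, SE 0.15, adjusted p = 0.00253). PHA2, prephenate dehydratase towards phenylalanine, had 37.1, 36.8 and 26.1 CPM in W34/70 9.7 and 27.3, 25.9 and 36.8 CPM in CBS1538 11.1, and the groups overlapped (log2 0.15, adjusted p = 0.537). ARO7, the chorismate mutase feeding both, had 12.3 to 14.8 CPM in W34/70 9.7 and 13.9 to 21.0 CPM in CBS1538 11.1 (log2 -0.32, adjusted p = 0.229). ARO1, the pentafunctional enzyme between DAHP and chorismate, differed by -0.39 (adjusted p = 0.161), and chorismate synthase ARO2 by -0.57 (adjusted p = 0.0473), a call lost without any of 4 of the 6 libraries.

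The Ehrlich pathway turns phenylalanine and the branched-chain amino acids into higher alcohols by transamination, decarboxylation and reduction. Of its 11 genes tested 3 were called higher and 2 lower, beside 25.7% and 25.2% of all genes. The decarboxylase, activator and aminotransferase genes described next were not called. ARO10, the phenylpyruvate decarboxylase, had 441, 141 and 174 CPM in W34/70 9.7 and 218, 312 and 269 CPM in CBS1538 11.1 (log2 -0.08, SE 0.38, adjusted p = 0.872). Replicate 1 of W34/70 9.7 was above and its other libraries below all CBS1538 11.1 libraries. ARO80, the activator of ARO9 and ARO10, had 26.0 to 34.6 CPM in W34/70 9.7 and 29.3 to 31.3 CPM in CBS1538 11.1 (log2 0.00, SE 0.18). The aromatic aminotransferase ARO8 differed by -0.44 (adjusted p = 0.195). ARO8 had no S. eubayanus counts in any library, so all counts of both strains lay on the S. cerevisiae feature, and their copy of origin was not tested. BAT1 and BAT2, the mitochondrial and cytosolic branched-chain aminotransferases, differed by 0.54 (SE 0.33, adjusted p = 0.186) and -1.01 (SE 0.45, adjusted p = 0.0671). ARO9, PDC5 and ADH2 did not occur once in each sub-genome and were not analysed here.

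Ester genes were mostly lower in W34/70 9.7. Of 6 tested, 4 were called lower in W34/70 9.7 and 1 higher (median log2 -1.18), and their summed level was 761 to 882 CPM in W34/70 9.7 and 1790 to 3070 CPM in CBS1538 11.1. EEB1, the main acyltransferase for ethyl esters of medium-chain fatty acids (YPL095C, XVI:368071-369441), had 226, 301 and 261 CPM in W34/70 9.7 and 1484, 2219 and 975 CPM in CBS1538 11.1, which was 5.94-fold higher (log2 -2.57, SE 0.27, adjusted p = 4.19e-07). Its homologue EHT1 had 108, 125 and 128 CPM in W34/70 9.7 and 433, 365 and 262 CPM in CBS1538 11.1 (log2 -1.55, SE 0.21). ATF2, an alcohol acetyltransferase that makes acetate esters (YGR177C, VII:848829-850436), had 60.0, 28.3 and 36.3 CPM in W34/70 9.7 and 170, 224 and 217 CPM in CBS1538 11.1 (log2 -2.29, SE 0.28). No W34/70 9.7 library reached the lowest CBS1538 11.1 library in these 3 genes. IAH1, the esterase that hydrolyses isoamyl acetate, overlapped, at 51.9 to 60.4 CPM in W34/70 9.7 and 36.9 to 81.3 CPM in CBS1538 11.1 (log2 -0.03, SE 0.23). On the S. eubayanus copy alone EEB1 differed by -3.44 and EHT1 by -1.97, both called, and ATF2 by -2.85 (adjusted p = 0.0636). ATF2 lies on S. eubayanus VII, and without the libraries lacking it the difference was -2.26 (adjusted p = 8.68e-07). ATF1 was not analysed here.

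**Figure D2:**
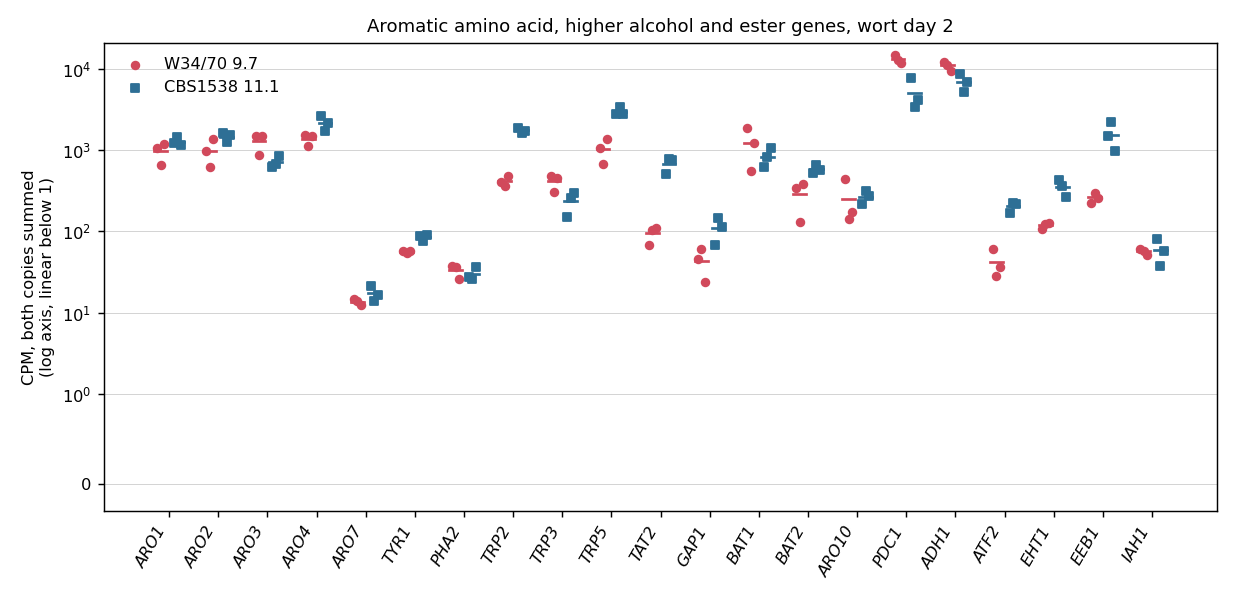
CPM of aromatic amino acid, branched-chain, higher alcohol and ester genes in each day 2 library on a log axis, with W34/70 9.7 as red circles, CBS1538 11.1 as blue squares and means of 3 libraries as lines. The groups are apart for TRP2, TRP5, TAT2, EEB1, EHT1 and ATF2, where CBS1538 11.1 is higher, and for PDC1 and ARO3, where W34/70 9.7 is higher. They overlap for ARO10, BAT1, PHA2 and IAH1.

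Uptake of amino acids sets how much substrate the Ehrlich pathway gets. In the permease list 8 of 14 members were called lower in W34/70 9.7 and 1 higher (median log2 -0.81). TAT2, the high-affinity tryptophan and tyrosine permease, had 68.1, 104 and 112 CPM in W34/70 9.7 and 510, 769 and 753 CPM in CBS1538 11.1, 7.18-fold higher (log2 -2.84, SE 0.33, adjusted p = 1.46e-06). PTR2, the di- and tripeptide transporter, had 119, 136 and 116 CPM in W34/70 9.7 and 322, 556 and 382 CPM in CBS1538 11.1 (log2 -1.76), and SSY5, the protease of the amino acid sensor that activates permease genes, had 55.0, 64.5 and 74.2 CPM in W34/70 9.7 and 148 CPM in each CBS1538 11.1 library (log2 -1.20). All 3 were apart between strains. GAP1, the general amino acid permease, stood at 46.0, 61.5 and 23.7 CPM in W34/70 9.7 and 67.2, 148 and 115 CPM in CBS1538 11.1 (log2 -1.33, SE 0.60, adjusted p = 0.0688). Nitrogen-repressed genes as a list had 5 of 29 higher and 9 lower, beside 25.7% and 25.2% of all genes. GAT1, an activator of those genes, had 225, 157 and 248 CPM in W34/70 9.7 and 41.9, 76.0 and 84.3 CPM in CBS1538 11.1 (log2 1.63, or 1.07 after chromosome centring), and MEP1, an ammonium permease, differed by -1.69.

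With copies summed, 5 of 11 arginine synthesis genes were called lower in W34/70 9.7 and 0 higher, beside 25.2% and 25.7% of all genes. On S. eubayanus copies alone 5 of 11 were lower and 2 higher, beside 21.8% and 20.8% in that fit. ARG8, acetylornithine aminotransferase, had 230, 177 and 170 CPM in W34/70 9.7 and 2126, 1949 and 1773 CPM in CBS1538 11.1, 10.2-fold higher (log2 -3.34, SE 0.26, adjusted p = 1.22e-08). ARG7, ornithine acetyltransferase of the same cycle, had 680, 430 and 732 CPM in W34/70 9.7 and 2798, 2454 and 2995 CPM in CBS1538 11.1 (log2 -2.16), and ARG5,6, which supplies both steps before ARG8, differed by -1.55. The arginine-degrading CAR1 was higher in W34/70 9.7, as given above. ARG5,6 lies on chromosome V and stood at -0.83 after chromosome centring.

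For branched-chain amino acids 3 of 13 genes were called higher and 3 lower, beside 25.7% and 25.2% of all genes. ILV5, acetohydroxyacid reductoisomerase, which consumes the precursor of diacetyl, had 2907, 1703 and 2554 CPM in W34/70 9.7 and 1090, 1386 and 1543 CPM in CBS1538 11.1 (log2 0.83, SE 0.22, adjusted p = 0.00434). ILV2, the acetolactate synthase that makes that precursor, had 1131, 774 and 950 CPM in W34/70 9.7 and 1180, 1615 and 1587 CPM in CBS1538 11.1 (log2 -0.62, adjusted p = 0.0235). The ILV2 call was lost without any of 4 of the 6 libraries. LEU4, the isopropylmalate synthase that draws towards leucine, had 3427, 2705 and 4253 CPM in W34/70 9.7 and 6324, 6474 and 6037 CPM in CBS1538 11.1 (log2 -0.86, SE 0.23). LEU2 differed by 1.42, but replicate 1 of W34/70 9.7 stood at 1459 CPM beside 302 and 495 CPM in its other libraries, and without it the difference was 0.53 and not called. LEU1 overlapped between strains (log2 -0.16, adjusted p = 0.76).

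Sulfate assimilation and methionine synthesis supply hydrogen sulfide and sulfite, and 14 of 30 genes were called lower in W34/70 9.7 and 2 higher (median log2 -0.61). Besides SSU1, MET10, a sulfite reductase subunit that takes sulfite to sulfide, had 1518, 573 and 1445 CPM in W34/70 9.7 and 2492, 2995 and 2254 CPM in CBS1538 11.1 (log2 -1.13, SE 0.28, adjusted p = 0.00209), and -1.71 after chromosome centring. On the S. eubayanus copy alone MET10 was not called (-0.30, adjusted p = 0.448). MET12 and MET13 encode isozymes of methylenetetrahydrofolate reductase and went opposite ways. MET12 had 146, 128 and 194 CPM in W34/70 9.7 and 362, 498 and 313 CPM in CBS1538 11.1 (log2 -1.33), while MET13 had 472, 214 and 409 CPM in W34/70 9.7 and 84.7, 108 and 105 CPM in CBS1538 11.1 (log2 1.88). MET13 had 6.21% of its W34/70 9.7 counts on the S. eubayanus copy and differed there by -0.69 (adjusted p = 0.68), or -0.10 (adjusted p = 0.779) without the libraries lacking S. eubayanus VII. MET14, the adenylylsulfate kinase, had 326, 94.3 and 151 CPM in W34/70 9.7 and 122, 139 and 193 CPM in CBS1538 11.1 and was not called (log2 0.33, adjusted p = 0.412).

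Hsp90, the target of radicicol, is encoded by 2 genes. The heat-inducible HSP82 had 303, 161 and 266 CPM in W34/70 9.7 and 624, 743 and 692 CPM in CBS1538 11.1, 2.82-fold higher (log2 -1.5, SE 0.27, adjusted p = 0.000132). The constitutive HSC82 was the more abundant gene, with 2022, 1213 and 1830 CPM in W34/70 9.7 and 1910, 1603 and 1514 CPM in CBS1538 11.1, and the groups overlapped (log2 0.01, SE 0.33, adjusted p = 0.982). Their regulator HSF1 differed by -0.36 (SE 0.23, adjusted p = 0.204). Of the 18 genes for Hsp90 and its co-chaperones, 4 were called higher and 2 lower, beside 50.9% called among all genes. TAH1, which links Hsp90 to the R2TP assembly complex, had 28.2, 25.1 and 26.2 CPM in W34/70 9.7 and 0.574, 3.14 and 2.55 CPM in CBS1538 11.1 (log2 3.53, SE 0.39), all on the S. cerevisiae copy in W34/70 9.7 and all on the S. eubayanus copy in CBS1538 11.1. SBA1, the p23 co-chaperone, had 201, 227 and 177 CPM in W34/70 9.7 and 90.1, 110 and 112 CPM in CBS1538 11.1 (log2 0.95).

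Drug and weak-acid efflux genes were mostly lower in W34/70 9.7 with copies summed, with 9 of 16 called lower and 3 higher (median log2 -1.03). On S. eubayanus copies alone 5 of 16 were called lower and 2 higher (median log2 -0.35), beside 21.8% and 20.8% of all genes in that fit. PDR12, the pump for weak organic acids, had 200, 128 and 95 CPM in W34/70 9.7 and 716, 880 and 572 CPM in CBS1538 11.1, 5.12-fold higher (log2 -2.36, SE 0.30, adjusted p = 3.19e-06). RSB1, a transporter of long-chain bases, had 240, 227 and 310 CPM in W34/70 9.7 and 1561, 1425 and 1205 CPM in CBS1538 11.1 (log2 -2.43). PDR5, the main multidrug pump, was the opposite, with 159, 321 and 164 CPM in W34/70 9.7 and 44.5, 37.7 and 45.0 CPM in CBS1538 11.1, 5.07-fold higher in W34/70 9.7 (log2 2.34, SE 0.23, adjusted p = 2.44e-07). None of the 3 overlapped, and on the S. eubayanus copy alone they differed by -2.35, -1.65 and 2.46, all called.

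Membrane lipid genes were lower in W34/70 9.7 in the fatty acid and sterol-regulator lists and mixed in the sterol pathway itself. In the list of fatty acid synthesis and desaturation 7 of 13 were called lower and 0 higher. IFA38, a reductase of fatty acid elongation, had 196, 206 and 167 CPM in W34/70 9.7 and 610, 381 and 375 CPM in CBS1538 11.1 (log2 -1.26). Among sterol uptake and oxygen regulators 7 of 12 were lower and 0 higher. HAP1, the haem-responsive activator, had 266, 267 and 260 CPM in W34/70 9.7 and 831, 762 and 698 CPM in CBS1538 11.1 (log2 -1.53, SE 0.18), and HEM13, an oxygen-repressed haem synthesis gene, had 1713, 1052 and 961 CPM in W34/70 9.7 and 3537, 2439 and 3911 CPM in CBS1538 11.1 (log2 -1.41). HAP1, HEM13 and UPC2 were each apart between the strains in every library. Of 27 ergosterol genes 10 were higher and 7 lower, beside 25.7% and 25.2% of all genes. ERG24, the C-14 sterol reductase, differed by -1.65, and ERG8, phosphomevalonate kinase, by 1.77, which became 1.13 with copies scaled by annotated length and -0.07 on the S. eubayanus copy alone. In phospholipid synthesis 5 of 19 were higher and 7 lower, and the inositol transporters ITR1 and ITR2 differed by 1.54 and -0.88.

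Translation and mitochondrial genes were more often called higher than lower in W34/70 9.7. Of 113 cytosolic ribosomal protein genes 69 were called higher in W34/70 9.7 and 7 lower (median log2 0.83). Their summed level overlapped, at 110000 to 142000 CPM in W34/70 9.7 and 81970 to 142900 CPM in CBS1538 11.1. RPL9A had 762, 685 and 642 CPM in W34/70 9.7 and 127, 83.5 and 125 CPM in CBS1538 11.1 (log2 2.64, SE 0.26), and RPS4B had 1163, 1254 and 1568 CPM in W34/70 9.7 and 335, 237 and 322 CPM in CBS1538 11.1 (log2 2.16). Both belong to paralogue pairs whose shared reads can be counted on either gene, and on the S. eubayanus copy alone neither was called (0.65 and 0.31). RPL9A lies on S. eubayanus VII and was called there without the libraries lacking it (1.24, adjusted p = 0.00164). Of 113 members 41 were called higher and 9 lower on that copy, beside 20.8% and 21.8% of all genes in that fit. RPS6B fell to 1.71 when copies were scaled by annotated length, against 2.64.

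For the mitochondrial ribosome 44 of 68 were called higher and 1 lower (median log2 0.83). On S. eubayanus copies alone 34 of 68 were higher and 7 lower, beside 20.8% and 21.8% of all genes in that fit. MRPL7, a large-subunit protein, had 167, 176 and 121 CPM in W34/70 9.7 and 16.4, 21.5 and 24.0 CPM in CBS1538 11.1, 7.42-fold higher in W34/70 9.7 (log2 2.89, SE 0.21, adjusted p = 8.69e-09). MRP20 had 253, 227 and 243 CPM in W34/70 9.7 and 66.6, 40.5 and 68.7 CPM in CBS1538 11.1 (log2 2.04). Of 41 respiratory chain and ATP synthase genes 17 were higher and 1 lower. CYC1, cytochrome c, had 121, 174 and 99.5 CPM in W34/70 9.7 and 46.2, 32.9 and 47.1 CPM in CBS1538 11.1 (log2 1.65), and QCR7, of the cytochrome bc1 complex, had 420, 416 and 370 CPM in W34/70 9.7 and 97.3, 92.3 and 135 CPM in CBS1538 11.1 (log2 1.89). These nuclear genes of mitochondrial function, picked for the smallest p in a list, did not overlap between strains. Of all genes tested 52.1% did not overlap.

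The proteasome list had 20 of 36 higher and 1 lower, beside 25.7% and 25.2% of all genes. On S. eubayanus copies alone 15 of 35 were higher and 5 lower, beside 20.8% and 21.8% in that fit. PRE5, a core particle subunit, had 356, 313 and 287 CPM in W34/70 9.7 and 87.3, 76.9 and 74.1 CPM in CBS1538 11.1 (log2 2.01, SE 0.18). Its S. eubayanus feature had no counts in any of the 18 libraries, so all counts of both strains lay on the S. cerevisiae feature. Whether the CBS1538 11.1 counts came from an S. cerevisiae copy was not tested. SEM1, a lid subunit, differed by 1.78 and had 40.1, 32.8 and 44.5 CPM in W34/70 9.7 and 12.3, 11.1 and 10.8 CPM in CBS1538 11.1. RNA polymerases I and III had 16 of 34 higher and 3 lower, with RPA14 at 7.13-fold. Ribosome biogenesis stood nearer the background, at 36 of 127 higher and 14 lower. RRP15, a 60S assembly factor, had 87.3, 85.9 and 95.1 CPM in W34/70 9.7 and 15.8, 4.64 and 5.85 CPM in CBS1538 11.1 (log2 3.45), and BUD23, a rRNA methyltransferase, had 49.8, 59.4 and 63.8 CPM in W34/70 9.7 and 239, 233 and 274 CPM in CBS1538 11.1 (log2 -2.11).

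Translation factors showed no common direction, with 12 of 40 higher and 10 lower, near the 25.7% and 25.2% of all genes. Of 40 DNA replication and cyclin genes tested, 20 were called lower in W34/70 9.7 and 0 higher (median log2 -0.56), and their summed level was 3837 to 5008 CPM in W34/70 9.7 and 7386 to 7770 CPM in CBS1538 11.1. SWI5, the factor of late mitosis and early G1, had 14.6, 17.2 and 15.8 CPM in W34/70 9.7 and 48.8, 60.1 and 81.9 CPM in CBS1538 11.1 (log2 -2.01, SE 0.22). CLB3, a B-type cyclin, had 70.6, 65.1 and 56.1 CPM in W34/70 9.7 and 128, 166 and 157 CPM in CBS1538 11.1 (log2 -1.24), and MCM3, of the replicative helicase, differed by -1.25 (-0.52 after chromosome centring). After centring 18 of 40 were lower and 1 higher, and on S. eubayanus copies alone 12 of 39 were lower and 6 higher. Histones leaned the other way with copies summed, with 4 of 10 higher and 0 lower. On S. eubayanus copies alone 1 of 10 was called higher and 1 lower (median log2 0.05). HTA2 had 218, 178 and 135 CPM in W34/70 9.7 and 42.8, 24.2 and 64.1 CPM in CBS1538 11.1 (log2 2.01), and -0.20 on its S. eubayanus copy (adjusted p = 0.656).

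**Figure D3:**
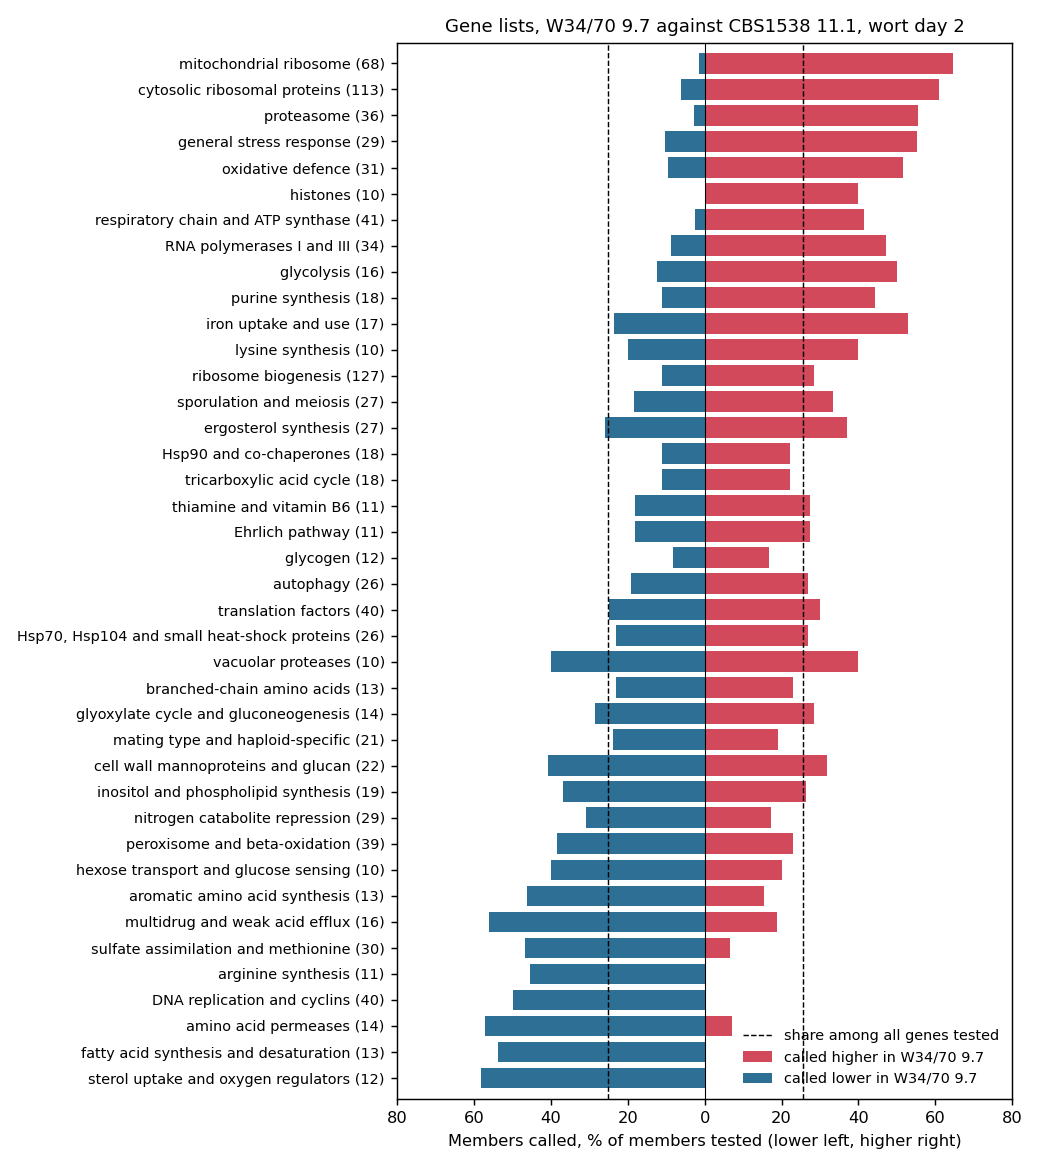
Share of members called higher (red, right) and lower (blue, left) in W34/70 9.7 for each list with at least 10 genes tested, whose number stands in brackets. Dashed lines mark the shares among all genes tested, 25.7% higher and 25.2% lower. Mitochondrial ribosome, ribosomal protein, proteasome and stress lists lie beyond the right line, and sterol regulator, fatty acid, permease and DNA replication lists beyond the left line.

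The zinc list held more genes called lower, and the iron list more called higher. For zinc, of which the wort held 1 mM, 4 of 7 genes were called lower in W34/70 9.7 and 1 higher. ZRT2, the low-affinity zinc importer, had 33.2, 29.7 and 29.2 CPM in W34/70 9.7 and 269, 190 and 175 CPM in CBS1538 11.1, 6.86-fold higher (log2 -2.78, SE 0.23), and ZRT3, which releases vacuolar zinc, differed by -1.65. For iron 9 of 17 were higher and 4 lower. FET3, the multicopper oxidase of high-affinity iron uptake, had 474, 456 and 246 CPM in W34/70 9.7 and 62.3, 66.3 and 73.7 CPM in CBS1538 11.1 (log2 2.54, SE 0.24), and its partner permease FTR1 had 426, 686 and 299 CPM in W34/70 9.7 and 147, 174 and 155 CPM in CBS1538 11.1 (log2 1.57). FTR1 stood at 2.29 after chromosome centring, and at 0.50 on the S. eubayanus copy alone, where it was not called (adjusted p = 0.132). Of the named iron genes FRE1, a ferric reductase, was lower in W34/70 9.7, by -1.67.

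Of 21 mating-type and haploid-specific genes 4 were called higher and 5 lower, with a summed level of 250 to 458 CPM in W34/70 9.7 and 274 to 317 CPM in CBS1538 11.1. STE5, the scaffold of the mating pathway, had 11.1, 13.5 and 11.5 CPM in W34/70 9.7 and 0, 2.39 and 0.3 CPM in CBS1538 11.1 (log2 3.53, or 5.91 without CBS1538 11.1 replicate 2). Of 27 sporulation and meiosis genes 9 were higher and 5 lower, at 322 to 429 CPM summed in W34/70 9.7 and 384 to 562 CPM in CBS1538 11.1. Among all genes 25.7% were called higher and 25.2% lower. The part of these 2 lists in the other results was not tested. The cell wall list had 7 of 22 higher and 9 lower, with CCW14, an inner-layer wall protein, at 973, 607 and 985 CPM in W34/70 9.7 and 254, 148 and 191 CPM in CBS1538 11.1 (log2 2.12), and FKS1, the glucan synthase, at -1.62. FLO11, a flocculin of a repeat-rich family whose reads are uncertain, overlapped between strains (log2 -0.58, adjusted p = 0.115).

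Strain differences varied by chromosome, although copies were summed. Genes on chromosome V had a median log2 difference of -0.71, with 6.73% of 208 called higher and 57.2% lower, and the medians of the W34/70 9.7 replicates were -0.70, -0.60 and -0.75. Chromosomes VI (0.54, 52.4% of 82 higher and 8.54% lower), I (0.45) and IV (0.30) stood on the other side. The remaining 12 chromosomes had medians between -0.16 and 0.22. On VII the median of W34/70 9.7 replicate 2, which had few S. eubayanus VII counts, was -0.31. Replicates 1 and 3 stood there at 0.02 and -0.04. Summed values of VII genes above include replicate 2. Chromosome V held TRP2, ARG5,6, MCM3 and FTR1 among the genes described above. After the chromosome median was removed in each library 1102 genes were called higher and 1095 lower. HSP12, which lies on VI, kept its call after that centring. On V the median was -0.83 on day 4 and -0.63 in minimal medium, and on VI 0.41 and 0.46.

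**Figure D4:**
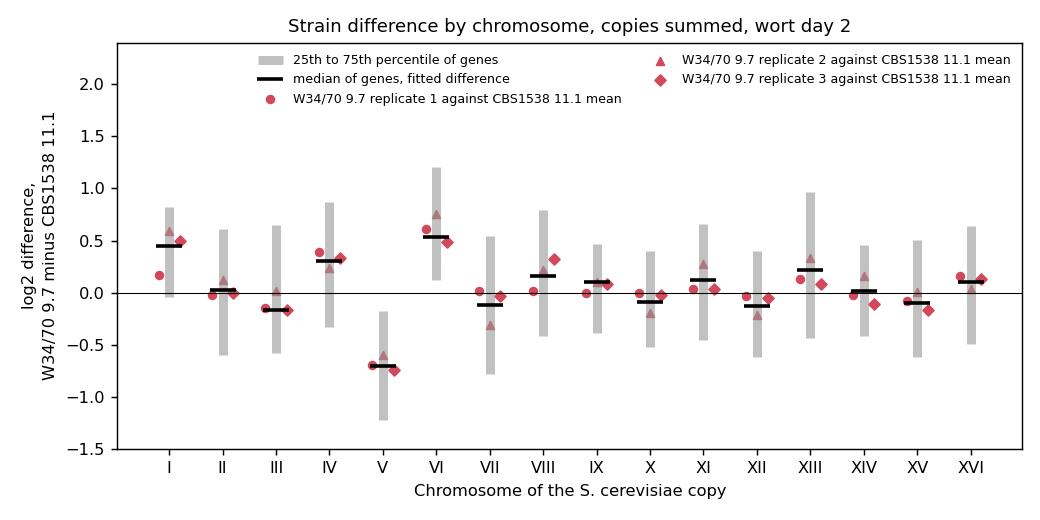
Median log2 difference (W34/70 9.7 minus CBS1538 11.1) of summed genes by S. cerevisiae chromosome on day 2, with the 25th to 75th percentile of genes in grey, the median as a black line and each W34/70 9.7 replicate against the CBS1538 11.1 mean as a red mark. Chromosome V lies at -0.71 and VI at 0.54, and on both all 3 replicates lie on the side of the median.

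The size of a difference also followed how a gene's counts were split between copies. For 3107 genes (71.1%), CBS1538 11.1 used the S. eubayanus copy and W34/70 9.7 both copies. Sorted by the S. eubayanus share of the W34/70 9.7 counts in the day 4 and minimal medium libraries, which the day 2 difference does not use, and cut into 5 equal groups, the group of genes with the lowest share (2.24% to 23.3%) had a median log2 difference of 0.45 on day 2, with 42.1% called higher and 14.8% lower. The group with the highest share (50.1% to 98.8%) had a median of -0.25, with 14.8% higher and 32.5% lower. On the S. eubayanus copy alone the order was turned, with medians of -0.70 and 0.47. In these genes the value on that copy is close to the summed difference plus the log2 of the copy's share in W34/70 9.7, apart from scaling. A rise with the share is thus part of that measure, and the turn is no separate result. The same relation ties the summed difference to the share. Taking shares from other libraries of the same strain does not remove that tie, so the fall is a description only. Across these genes, which share libraries and are not independent, Pearson's r between share and difference was -0.235. Of the genes called higher with summed copies, 505 of 1099 (46.0%) were called higher on the S. eubayanus copy alone, 512 were not called and 82 were called lower. Of those called lower, 565 of 1085 (52.1%) were lower there, 501 were not called and 19 were higher. HSP12, SOD1, EEB1, TAT2 and PDR5 kept their direction and call on that copy. ARO3 did not, nor did TDH3 and MET13 with or without the libraries lacking S. eubayanus VII.

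**Figure D5:**
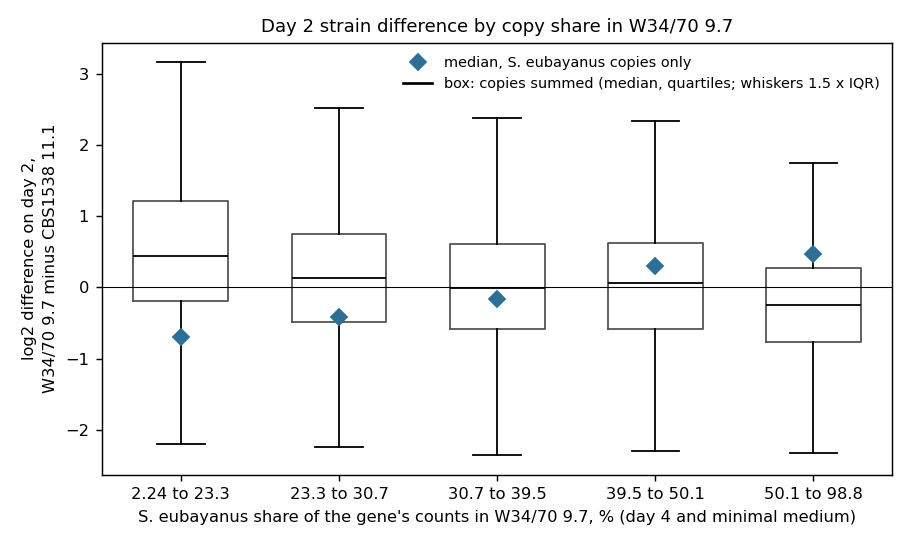
Day 2 log2 difference by the S. eubayanus share of a gene's counts in W34/70 9.7, in 5 equal groups of 3107 genes. Boxes show quartiles and medians with copies summed, whiskers reach 1.5 times the interquartile range, genes beyond them are not drawn, and blue diamonds are medians on the S. eubayanus copy alone. Box medians go from 0.45 in the lowest to -0.25 in the highest group, and diamonds from -0.70 to 0.47. The value shown by the diamonds carries the share itself, and the same relation ties the boxes to the share.

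The day 2 differences were partly shared with the other conditions, which used other libraries of the same mutants. Minimal medium cultures differed from the wort in more than medium: they were inoculated at 1000000 cells per mL into 60 mL with 1% dextrose, 1% maltose and 0.5% ammonium sulfate, grown at 20 °C and harvested in exponential phase. Of 2226 genes called on day 2, 1562 (70.2%, and 58.5% of the 2669 called on day 4) were called the same way on day 4 and 67 the opposite way. In minimal medium 1282 (57.6%, and 46.4% of 2764) were called the same way and 261 the opposite way. The strain difference itself differed between day 2 and day 4 for 791 genes (18.1% of those tested, 8.45% upward and 9.66% downward) and between day 2 and minimal medium for 1577 (36.1%, 17.5% upward and 18.6% downward). Since only the CBS1538 day 2 libraries carry the label doubt, tests against day 4 carry it too.

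ATF2 (-2.42 on day 4 and -2.16 in minimal medium) and PDR12 (-2.73 and -2.70) were called lower in all 3 conditions. So was TRP2 (-2.87 and -1.70), whose difference was larger on day 4 than on day 2 (adjusted p = 0.0348). TAT2 was lower on day 4 as well (-3.08), but in minimal medium both strains were low, at 29.6 CPM in W34/70 9.7 and 23.3 CPM in CBS1538 11.1 (log2 0.34, adjusted p = 0.359). EEB1 stood at -1.38 on day 4, a smaller difference than on day 2 (-1.19 between the days, SE 0.36, adjusted p = 0.0279), and EHT1 at -2.92, a larger difference (1.37 between the days, adjusted p = 0.00417). YHB1 had the largest such change among the named genes: it averaged 212 CPM on day 2 and 160 CPM on day 4 in W34/70 9.7, against 0.649 CPM on day 2 and 14.8 CPM on day 4 in CBS1538 11.1, so that the difference was 4.68 larger on day 2 (SE 0.76, adjusted p = 0.00102). ARO7 was not called on day 2 but stood at 1.56 on day 4 and 1.94 in minimal medium. The acetaldehyde dehydrogenase genes differed among themselves. ALD6 stood at 0.79 on day 2 (adjusted p = 0.0472, lost without any of 4 of the 6 libraries), -1.02 on day 4 and -5.57 in minimal medium. ALD4 was not called on day 2 (0.50, adjusted p = 0.0696) and stood at -1.05 on day 4 and -5.14 in minimal medium. ALD5 was lower on day 2 (-1.24, or -0.49 and not called after chromosome centring) and was not called on day 4 (-0.51) or in minimal medium (-0.60).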

How the data were processed

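Counts per gene were taken as the authors deposited them, in 1 table of raw counts for 18 libraries and 11979 features of both sub-genomes. Per the submitters' processing notes, STAR, SAMtools, featureCounts and DESeq2 were used with build R64. For tool versions, the S. eubayanus assembly, strand setting and multimapping reads, the answer is not given in the sources used here, and a read that matches both copies could be lost or placed on either. Depth was 5266324 to 15020202 counts in the 6 libraries compared, and intervals from counts cover counting error only.

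Counts of both copies were summed by gene name. Genes passing filterByExpr (minimum count 10, minimum total 15) were fitted with edgeR 4.0.16 (R 4.3.3, TMM, quasi-likelihood) in 1 fit with a mean per group over all 18 libraries, without a replicate block. P-values were adjusted by Benjamini-Hochberg over the 4369 genes tested, and the method was tested on simulated data. DESeq2 1.42.0 and 18 other alternatives were run. Correlations of same-numbered replicates' deviations between strains were 0.184, 0.0758 and -0.0524, so the numbers were not used as pairs. The labels say triplicate cultures.

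The members and gene lists were chosen with earlier results of these data known. The genes named are the 12 largest calls each way (no overlap, at least 16 CPM in the higher group, copies within 10% in length), the 3 members of each list with the smallest p, and a set of flavour, uptake and chaperone genes.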

Additional observations from a re-analysis of the deposited data

Results flagged for a closer look

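The strain difference on day 2 differed from that on day 4 for 791 genes and from that in minimal medium for 1577 genes, by edgeR's interaction contrast at an adjusted p under 0.05. The CBS1538 day 2 libraries are the ones whose labels disagree, and the part of that in these differences was not tested. The values below are the day 2 minus the day 4 log2 difference for the named genes that passed.

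Stress and carbon genes stood relatively higher in W34/70 9.7 on day 2: YHB1 4.68, DDR2 2.49, FMP16 2.87, GPD1 1.86, GCY1 1.42, GRX2 1.77, SOD1 1.33, SOD2 0.90, MSC1 1.60, SGA1 1.65, UGP1 0.98, ALD4 1.55 and ALD6 1.81. The same sign was measured for the nitrogen and amino acid genes CAR1 2.58, GAT1 1.42, ILV6 1.06, MET13 1.14, TRP2 0.81 and TRP3 1.07, for EHT1 1.37, and for the lipid and galactose genes ERG8 1.05, FAA1 1.26 and GAL1 1.31.

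Genes of ribosomes, mitochondria and proteolysis with that sign were RPL9A 1.49, MRPL7 1.07, RSM23 1.00, CYC1 1.03, QCR7 1.01, LPD1 1.32, RPA14 1.28, PRE5 1.14 and PBI2 1.23. CCW14 stood at 2.16, HTB2 at 1.01, PDR5 at 0.98 and THI2 at 2.12.

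The opposite sign was measured for the ribosome assembly genes MAK16 (-1.28) and RRP15 (-1.56), the regulators HSF1 (-1.28), SWI5 (-1.76), UME6 (-1.5) and UPC2 (-1.10), and for ARO7 (-1.88), EEB1 (-1.19), HIS7 (-1.16), GIP2 (-1.73), YSR3 (-1.20) and FLO11 (-2.81, a family whose reads are uncertain).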

How the results depend on the processing

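The counts of 1124 genes higher and 1102 lower stayed within 1.5 times under every alternative, at 810 to 1234 higher and 876 to 1106 lower. Leaving out 1 library gave 1028 to 1082 higher and 941 to 1050 lower, 555 to 945 genes for day 2 against day 4 and 1371 to 1638 against minimal medium. With a replicate block the counts were 1089, 1070, 707 and 1516. The day 2 against day 4 count of 791 was 523 with the compared groups fitted alone, 286 on the S. eubayanus copy alone and 460 on that copy without the 2 libraries lacking S. eubayanus VII. The limits to genes with 10 counts on that copy in every library, and to libraries with S. eubayanus VII, were chosen after seeing the data. Of 160 called named genes 100 kept direction and call throughout.

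Direction turned on the S. eubayanus copy alone for 21 named genes. The second value is without the 2 libraries lacking S. eubayanus VII: ADH3 (-0.42, -0.35), ARO3 (-0.40, -0.17), ERG8 (-0.067, -0.39), FAA1 (0.26, 0.20), FPS1 (0.27, 0.33), MTH1 (-0.44, -0.36), HIS6 (0.24, 0.34), HTA2 (-0.20, -0.27), ITR1 (-1.19, -0.97), MET13 (-0.69, -0.10), THI2 (-0.28, -0.029), HSC82 (-1.79, -1.67), and, with near 0 counts on that copy in W34/70 9.7, TUP1 (-13.87, -13.91), FBA1 (-7.14, -6.82), TAH1 (-7.05, -7.12), SBA1 (-7.67, -12.12), ATP15 (-10.61, -10.64) and TRP3 (-13.77, -13.81). TDH3 (-0.40), RSM23 (-0.070) and SCL1 (-0.58) lie on S. eubayanus VII and did not turn without those libraries (0.17, 0.53 and 0.0094). HSP104 (0.0083) and MET10 (0.040) turned without those libraries only. For the genes with counts on both copies in every library the cause was not tested.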
